A study of Mus musculus with 20 samples.

Results

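The 8 genes described here were Otx1, Emx2, Lhx2, Six3, Pax6, En2, Zic1 and Zic4, transcription factors that mark position along the developing brain and lie outside the Hox clusters. They were chosen by name, with every probe set that the platform annotation gives to 1 of these symbols alone, which made 16 probe sets of 8 genes among 18193 genes measured. Earlier results of these data were known at that choice, so their calls beside the share of all genes are no test of the list. Total RNA of mouse brain cell lines described as progenitors was hybridised to 20 single-colour Affymetrix arrays, 1 sample to an array. The embryonic control group held 5 samples of unmodified embryonic progenitors, and the embryonic transduced group 5 samples of embryonic progenitors that had been genetically modified by transduction. The postnatal control group held 5 samples of control postnatal progenitors, and the postnatal transformed group 5 samples of postnatal progenitors after transformation. The labels name neither the introduced sequence nor the transforming agent, nor a brain region, strain or exact age. Whether samples of a group were grown as separate cultures is not stated, and p-values therefore reflect sample-to-sample spread that could be technical.

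The early neural tube is divided into territories by transcription factors that are switched on at set positions and keep one another out of neighbouring territories. Otx, Emx, Lhx2, Six3 and Pax6 belong to the forebrain programme, En2 to the boundary between midbrain and hindbrain, and the Zic zinc-finger factors to the dorsal neural tube, the cerebellum and the meninges. Progenitors taken into culture can keep part of such a positional code.

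Promoter sequence was available in the RefSeq promoter table (GRCm38.p6) for 6 of the 8 genes, and none was found there for Otx1 and En2. The 4 shown are those of Zic1 and Zic4, which are neighbours on chromosome 9 on opposite strands with starts 3204 bases apart and no listed gene between them, and those of Emx2 and Pax6, the genes with an entry that had signal above background in both modified groups and were called different between the embryonic and postnatal responses. Each run is the 250 bases before the start of the gene, 5′ to 3′ on the gene's strand, and capitals mark CCAAT or its complement ATTGG. The Zic1 window is chr9:91365769-91366018 on the minus strand, the Zic4 window chr9:91368722-91368971 on the plus strand, the Emx2 window chr19:59458440-59458689 on the plus strand and the first listed Pax6 window chr2:105668646-105668895 on the plus strand.
Zic1: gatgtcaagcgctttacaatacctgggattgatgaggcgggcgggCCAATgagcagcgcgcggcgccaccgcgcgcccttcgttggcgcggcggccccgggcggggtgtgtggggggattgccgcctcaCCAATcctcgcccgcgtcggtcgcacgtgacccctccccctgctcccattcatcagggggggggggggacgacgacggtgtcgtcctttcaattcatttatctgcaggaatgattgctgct
Zic4: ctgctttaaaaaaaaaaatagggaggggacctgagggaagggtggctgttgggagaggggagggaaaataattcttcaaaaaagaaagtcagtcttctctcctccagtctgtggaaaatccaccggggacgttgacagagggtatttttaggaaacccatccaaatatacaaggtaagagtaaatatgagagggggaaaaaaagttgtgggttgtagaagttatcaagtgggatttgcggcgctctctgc
Emx2: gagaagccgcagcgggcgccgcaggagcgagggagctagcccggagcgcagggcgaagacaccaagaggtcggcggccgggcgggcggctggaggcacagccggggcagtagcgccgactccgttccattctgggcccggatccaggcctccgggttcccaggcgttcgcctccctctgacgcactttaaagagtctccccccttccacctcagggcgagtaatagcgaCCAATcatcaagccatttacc
Pax6: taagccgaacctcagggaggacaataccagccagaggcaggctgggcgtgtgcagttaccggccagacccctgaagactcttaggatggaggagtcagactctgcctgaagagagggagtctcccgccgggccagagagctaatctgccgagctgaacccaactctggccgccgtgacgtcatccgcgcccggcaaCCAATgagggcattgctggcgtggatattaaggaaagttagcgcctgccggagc
The Zic1 window held 2 CCAAT letters in either orientation and 27 CpG dinucleotides, and the Zic4 window held none and 4 CpG. The Emx2 window held 1 and 24 CpG, and the Pax6 window 1 and 15 CpG. Of all 32851 promoter windows of this length, 33.8% held at least 1 CCAAT or ATTGG and 10.1% held 2 or more, and the median number of CpG was 6. These matches describe the letters and are not sites.

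A signal is a linear intensity in arbitrary units, and levels are compared for a gene between groups and with background, not between genes. Background on an array was read from 27 bacterial control probe sets as their 95th percentile, and lay between 107 and 221. Of the 8 genes, 7 were above it on all 5 arrays of at least 1 group, against 38 of 69 other positional factors and 71.7% of all genes. Log2 changes are of log2(signal + 16), with the standard error of a limma fit over all 20 arrays, and adjusted p-values are limma's, corrected by the Benjamini-Hochberg method over the 18193 genes. Values of a gene's other probe sets come from a like fit over all probe sets but controls, corrected over those probe sets. Called means 2-fold or more with an adjusted p below 0.05. Where a group had no array above background the fold is a lower bound, and where it had 1 to 3 the mean signals are given in place of a fold. On arrays 4 and 5 of the postnatal control group the proliferation gene Mki67 had signals of 5929 and 4351, against 34816 to 37266 on the other 3 and 3848 to 5403 in the postnatal transformed group. In RNA of whole cultures, fewer cells of a type and less RNA per cell cannot be told apart.

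**Figure D1:**
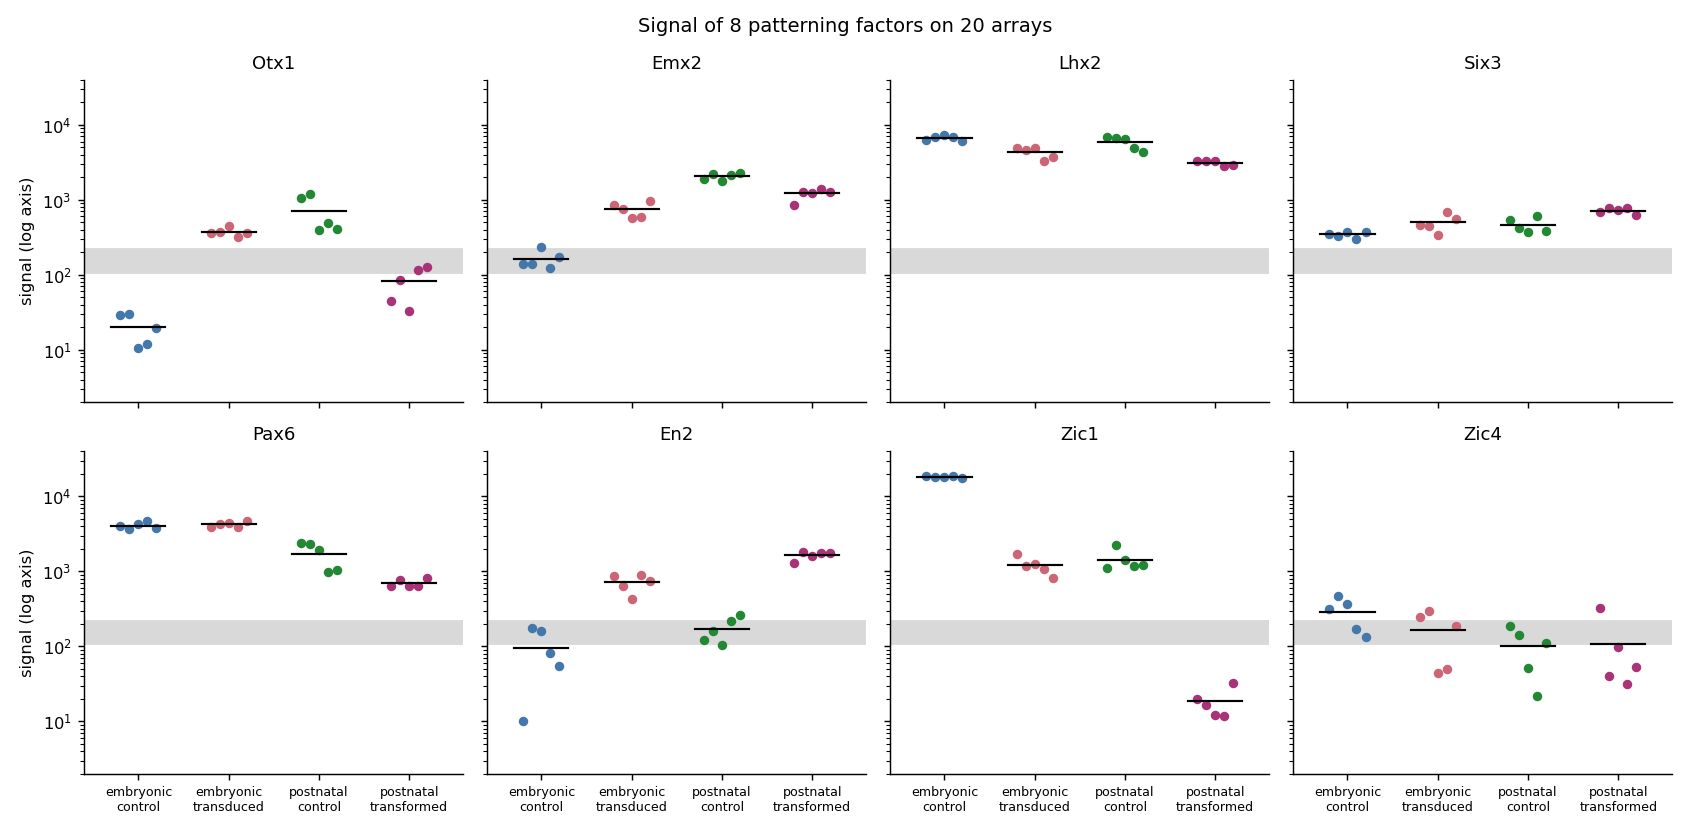
Signal of the representing probe set of each gene (vertical log axis, arbitrary units) in the 4 groups of 5 arrays, with points for arrays, bars for group means and a grey band for the range of background over arrays. Zic1 fell from about 18232 in the embryonic control group to below background in the postnatal transformed group, while Otx1 and En2 were below or near background in some groups and above it in others.

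The embryonic response compares transduced with control embryonic progenitors. Otx1, Emx2 and En2 were higher after transduction and Zic1 was lower, so 3 of the 8 genes were called higher and 1 lower. Among all genes 8.61% were called higher and 5.74% lower. The median log2 change was 0.27 over the 8 genes and 0.08 over all genes. The postnatal response compares transformed with control postnatal progenitors. Only En2 of the 8 was called higher there, and Otx1, Pax6 and Zic1 were called lower, with 9.56% of all genes called higher and 6.4% lower. The median log2 change was −0.82 over the 8 genes and −0.00241 over all genes. En2 was called higher in both responses, which held for 2.74% of all genes, Zic1 was called lower in both, as were 1.3%, and Otx1 was called higher in the embryonic and lower in the postnatal response, as were 0.473%.

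**Figure D2:**
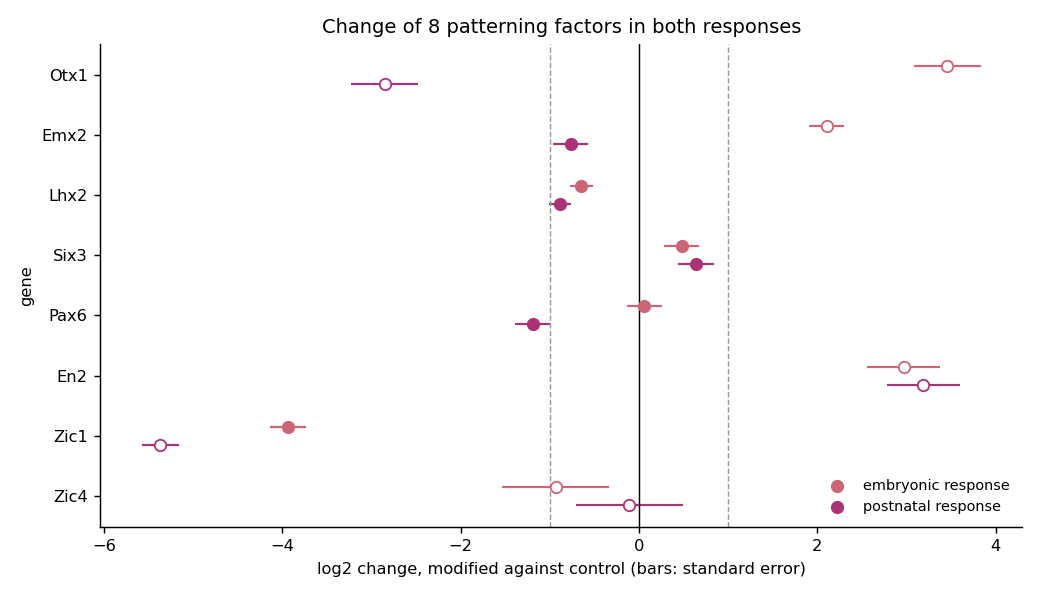
Log2 change (modified against control, on the log2(signal + 16) scale) of the 8 genes in the embryonic and the postnatal response, with bars for the standard error, dashed lines at 2-fold, and open points where a group was not above background on 4 or 5 of its 5 arrays. Otx1 lies at 3.46 in the embryonic and −2.85 in the postnatal response, and En2 lies right of the dashed line in both.

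Otx1, a homeobox factor of the forebrain and midbrain that is needed for cortical development, was read by 1 probe set. Its signals were 29.1, 29.7, 10.7, 11.9 and 19.6 on the embryonic control arrays, all below background, and 363, 371, 446, 324 and 360.4 on the embryonic transduced arrays, all above it. The groups did not overlap, and the signal after transduction was at least 2.22-fold higher (adjusted p = 1.16e-07, limma). On the postnatal control arrays the signals were 1058, 1193, 396, 497 and 406, and on the postnatal transformed arrays 44.7, 86.0, 33.0, 118 and 129. The transformed signals were lower on every array, with a mean of 82.1 and 1 array above background against 710.1 ± 384 (SD, n = 5) and 5 arrays (adjusted p = 1.45e-06, limma). The postnatal control signals fell into arrays 1 and 2 above 1000 and arrays 3 to 5 near 400 to 500, a split other than that of Mki67. From high to low, the postnatal control and embryonic transduced groups overlapped, and the postnatal transformed and embryonic control groups, with 1 and 0 of 5 arrays above background, lay below both and have no order between them.

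Emx2, a homeobox factor of the dorsal forebrain that sets the identity of the caudal cortex, was also read by 1 probe set. The embryonic control signals were 138, 141, 237, 125 and 174, above background on 2 arrays, and the embryonic transduced signals were 866, 763, 571, 590.3 and 967. The mean rose from 163 ± 45.3 to 751 ± 172 (SD, n = 5 each), with no overlap (adjusted p = 1.04e-08, limma). The postnatal control signals were 1893, 2183, 1779, 2157 and 2293, and the postnatal transformed signals 851, 1292, 1251, 1413 and 1280.1. The transformed arrays all lay below the controls, a log2 change of −0.77 ± 0.19 (adjusted p = 0.00257, limma), which is under 2-fold and was not called. The postnatal control group was the highest, the postnatal transformed and embryonic transduced groups overlapped, and the embryonic control group was the lowest.

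Lhx2, a LIM homeobox factor that specifies cortical progenitors and the eye field, was above background on all 20 arrays. Its signals were 6368, 6899, 7307, 6822 and 6061 in the embryonic control group and 4908, 4676, 4910.3, 3334 and 3737 in the embryonic transduced group. The transduced arrays were all lower, by a log2 change of −0.65 ± 0.13 (adjusted p = 0.000229, limma). In the postnatal control group the signals were 6957, 6744, 6410.3, 4989 and 4291, and in the transformed group 3278, 3276, 3336, 2805 and 2960.2. All transformed arrays were lower here too, by −0.88 ± 0.13 (adjusted p = 4.55e-06, limma). Both changes were under 2-fold and not called, and without postnatal control arrays 4 and 5 the postnatal change was −1.10 and called. Each group overlapped its neighbour in the order of levels from embryonic control through postnatal control and embryonic transduced to postnatal transformed.

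Six3, a homeobox factor of the anterior forebrain and eye, had 3 probe sets that disagreed. The representing one gave 349, 331, 377, 302 and 377 in the embryonic control group, 469, 451, 340.0, 684 and 560.1 in the embryonic transduced group, 531, 422, 370, 602 and 388 in the postnatal control group and 681, 779.9, 726, 781 and 627 in the postnatal transformed group. Its log2 change was 0.48 ± 0.20 in the embryonic response (adjusted p = 0.0642, limma), where the groups overlapped, and 0.64 ± 0.20 in the postnatal response (adjusted p = 0.0124, limma), where they did not, and neither was called. A second probe set was below background on all 20 arrays, and the third was above it on 1, 3, 2 and 2 of 5 arrays in the 4 groups. The representing probe set was designed from a different transcript record than the other pair, so a level of Six3 is given here for that probe set alone.

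Pax6, a paired-box factor of cortical and neural tube progenitors, was called in the postnatal response and not in the embryonic one. Its representing probe set gave 4048, 3682, 4221, 4647 and 3744 in the embryonic control group and 3879, 4232, 4439, 3955 and 4675 in the embryonic transduced group. These groups overlapped, with a log2 change of 0.06 ± 0.19 (adjusted p = 0.855, limma). The signals were 2398, 2302, 1907, 990.2 and 1039 in the postnatal control group and 639, 765, 644, 636 and 810 in the transformed group. All transformed arrays were lower, by −1.20 ± 0.19 (adjusted p = 2.37e-05, limma). The lowest controls were arrays 4 and 5, the arrays with low Mki67, and without them the change was −1.63.

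A second Pax6 probe set, also above background on all 20 arrays, changed by 0.11 ± 0.26 in the embryonic and −1.71 ± 0.26 in the postnatal response, the latter called. None of the other 3 was called in either response, and 1 of them, above background on all 5 embryonic control and all 5 postnatal transformed arrays, changed the other way in the postnatal response, by 0.39 ± 0.46 from a mean of 206 to 252 (adjusted p = 0.578, limma). With the mean of all 5 in place of the brightest, the postnatal change was −0.89 and not called.

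**Figure D3:**
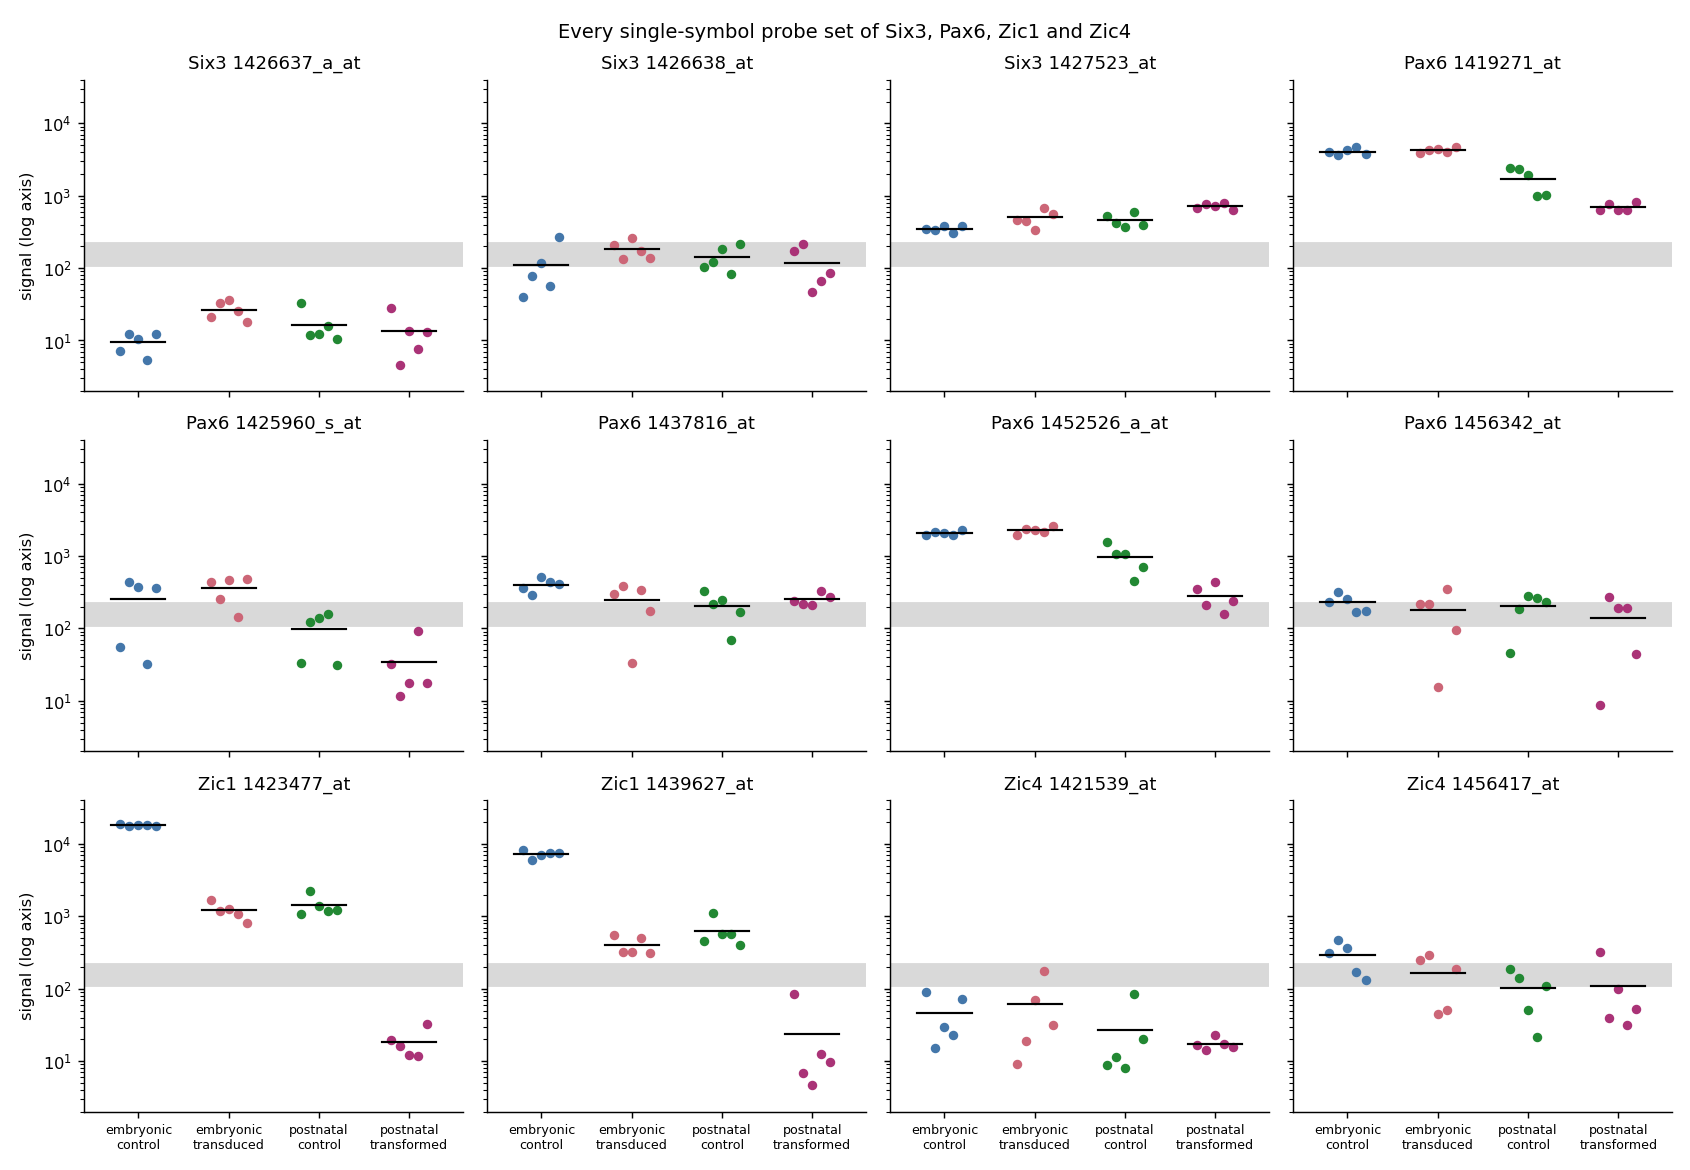
Signal (vertical log axis, arbitrary units) of every single-symbol probe set of Six3, Pax6, Zic1 and Zic4 in the 4 groups of 5 arrays, with points for arrays, bars for group means and a grey band for the range of background. The 2 Zic1 probe sets show the same order of group means as each other. So do the 2 Pax6 probe sets above background on all arrays, in an order other than that of Zic1, and those of Six3 do not.

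En2, a homeobox factor of the boundary between midbrain and hindbrain that is needed for cerebellar patterning, was called higher in both responses. Its signals were 10.2, 173, 161, 80.9 and 55.1 in the embryonic control group, with 1 array above background, and 861, 636, 424, 906 and 748 in the embryonic transduced group. The mean went from 96.1 to 715 ± 193 (SD, n = 5) with no overlap (adjusted p = 3.57e-06, limma). The postnatal control signals were 121, 162, 105, 216 and 260.4, with 3 arrays above background, and the transformed signals 1283, 1794, 1597, 1752 and 1771. The mean went from 173 ± 65.0 to 1639 ± 214 (SD, n = 5 each), again with no overlap (adjusted p = 1.10e-06, limma). The postnatal transformed group was the highest and the embryonic transduced group came next, and the 2 control groups overlapped.

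Zic1, a zinc-finger factor of the dorsal neural tube and cerebellar progenitors, was lower in both responses. Its brighter probe set gave 18859, 17874, 18204, 18489 and 17731 in the embryonic control group and 1701, 1172, 1269.7, 1089 and 816 in the embryonic transduced group. The mean fell from 18232 ± 458 to 1209.6 ± 322 (SD, n = 5 each), a log2 change of −3.94 ± 0.20 (adjusted p = 8.90e-13, limma). The postnatal control signals were 1095, 2265, 1407, 1182 and 1214, and the transformed signals 19.8, 16.3, 12.3, 11.8 and 32.5, below background on all 5 arrays. The transformed signal was at least 9.37-fold lower (adjusted p = 7.11e-15, limma). The second probe set changed by −4.16 ± 0.35 in the embryonic response and was at least 3.95-fold lower in the postnatal response. The embryonic control group was the highest, the embryonic transduced and postnatal control groups overlapped, and the postnatal transformed group was the lowest.

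Zic4, the neighbour of Zic1 and like it a factor of the developing cerebellum, was dim. Its brighter probe set gave 314, 471, 364, 173 and 132 in the embryonic control group, 247, 296, 44.4, 50.3 and 186 in the embryonic transduced group, 188, 141, 51.7, 21.9 and 110.1 in the postnatal control group and 321, 39.7, 99.0, 31.7 and 52.5 in the postnatal transformed group. It was above background on 3, 2, 1 and 1 of 5 arrays, and all groups overlapped. Its other probe set was above background on 1 of 20 arrays. No comparison called it. In the control age comparison its fitted log2 change was −1.47 ± 0.60 (adjusted p = 0.0672, limma), with 3 and 1 of 5 arrays above background, and it was called with the mean of both probe sets (−1.05, adjusted p = 0.0133, limma) and without embryonic control array 5, postnatal control array 1 or postnatal transformed array 1 (−1.47 to −1.73, adjusted p = 0.0400 to 0.0495, limma).

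The postnatal minus the embryonic response was tested as an interaction. Of the 8 genes, Otx1, Emx2, Pax6 and Zic1 were called lower, which made 4, and 0 were called higher, with 9.75% of all genes called lower and 9.36% higher. The fitted difference was −6.31 ± 0.53 for Otx1 (adjusted p = 3.05e-09, limma), −2.87 ± 0.27 for Emx2 (adjusted p = 2.24e-08, limma) and −1.25 ± 0.27 for Pax6 (adjusted p = 0.000744, limma). The second Pax6 probe set differed by −1.82 ± 0.36 and was called. Its other probe sets differed by −2.02 ± 0.87, 1.35 ± 0.64 and −0.06 ± 0.94 and were not called. With the mean of all Pax6 probe sets the difference was −0.76 and not called. For Otx1 and Emx2 the fitted size depends on groups near or below background, and the opposite directions of their signals stand on the array values above. For Zic1 the fitted difference of −1.43 ± 0.29 (adjusted p = 0.000341, limma) rests on signals below background, was −0.26 with an offset of 64 (adjusted p = 0.473, limma) and −0.06 in the second probe set, so no difference in size was measured. En2 differed by 0.22 ± 0.58 and Lhx2 by −0.24 ± 0.18, and neither was called.

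The control progenitors of both ages were compared directly. Otx1 and Emx2 were higher in the postnatal controls and Pax6 and Zic1 were lower, which made 2 genes called higher and 2 lower, where 4.86% of all genes were called higher and 5.72% lower. Otx1 was at least 3.78-fold higher in the postnatal controls (adjusted p = 1.68e-08, limma), and the mean signal of Emx2 was 2061 against 163 (adjusted p = 9.37e-12, limma). Zic1 changed by −3.71 ± 0.20 (adjusted p = 1.14e-11, limma) and by −3.60 ± 0.35 in its second probe set. Pax6 changed by −1.32 ± 0.19 (adjusted p = 1.54e-05, limma), but by −0.88 without postnatal control arrays 4 and 5 and by −0.97 with the mean of all 5 probe sets, both under 2-fold and not called. Lhx2 changed by −0.21 ± 0.13 and Six3 by 0.38 ± 0.20, and neither was called. En2 had mean signals of 96.1 and 173, with 1 and 3 of 5 arrays above background, and was not called (adjusted p = 0.0702, limma). It was called higher in the postnatal controls under quantile normalization (adjusted p = 0.0435, limma) and without embryonic control array 2 or 3 or postnatal control array 3 (adjusted p = 0.0227 to 0.0492, limma). Zic4 was not called and depended on the processing, as given above.

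Between the modified groups, the postnatal transformed against the embryonic transduced cells, En2 was called higher and Otx1, Pax6 and Zic1 lower. These 1 higher and 3 lower calls stand beside 11.7% of all genes called higher and 13.7% lower. En2 was higher by 1.22 ± 0.41 (adjusted p = 0.0158, limma), a call that an offset of 1 ended (adjusted p = 0.0533, limma). Pax6 was lower by a log2 change of −2.58 ± 0.19 (adjusted p = 1.51e-10, limma) and of −3.04 ± 0.26 in its second probe set. A further Pax6 probe set was called at least 2.21-fold lower. The remaining ones changed by 0.33 ± 0.46 and −0.39 ± 0.66 and were not called. Zic1 was at least 7.98-fold lower (adjusted p = 4.37e-15, limma), and the mean signal of Otx1 was 82.1 against 373 (adjusted p = 4.74e-05, limma). Emx2 changed by 0.69 ± 0.19, Lhx2 by −0.45 ± 0.13 and Six3 by 0.54 ± 0.20, all under 2-fold and with overlapping arrays. These 5 comparisons share groups, and their values are given side by side for that reason.

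Of 76 other positional transcription factors listed for this tissue, 69 had a single-symbol probe set. In the embryonic response 15 of them were called higher and 3 lower, and in the postnatal response 12 higher and 11 lower. Sp8, a zinc-finger factor of the rostral forebrain, was below background in the embryonic controls and at least 28.6-fold higher after transduction (adjusted p = 1.07e-10, limma). The dorsal factors Msx1 and Pax3 rose by 1.89 ± 0.17 and 3.57 ± 0.51, the latter with 4 of 5 control arrays above background, and Irx2 rose by 1.75 ± 0.17 and Nr2f2 by 1.17 ± 0.14. Nkx6-1, a ventral homeobox factor, was at least 2.23-fold lower and Dbx2 at least 4.35-fold lower. Meis1 fell by a log2 change of −1.21 ± 0.12, while its other 2 probe sets were not called.

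In the postnatal response 3 of the 6 Iroquois genes, homeobox factors of the caudal forebrain and hindbrain, were called higher. Irx3 went from a mean of 157 to 4757, with 3 of 5 control arrays above background, Irx5 from 151 to 2933, with 2 of 5, and Irx2 changed by 2.39 ± 0.17, with 4 of 5. Irx1 changed by 0.66 ± 0.14, under 2-fold, Irx6 had means of 135 and 206 with overlapping arrays, and Irx4 was below background in both groups. Vax2, a ventral forebrain and eye factor, was at least 11.2-fold higher and Msx1 was higher by 1.35 ± 0.17. The homeobox cofactors Pbx3 and Meis2 were lower by log2 changes of −2.16 ± 0.10 and −1.97 ± 0.15, and Gsx2 of the ventral forebrain went from 496 to 76.8. No called factor among the 69 changed sign under quantile normalization, under 75th percentile centring or without postnatal control arrays 4 and 5. At 2-fold a change of sign was unlikely, and some calls were lost. In the embryonic response Irx3, Barhl2 and Pax7 lost theirs under quantile normalization, and Pax7 also under 75th percentile centring. In the postnatal response Nr2f1 and Emx1 lost theirs under that centring, and Emx1, Dlx1, Dlx2, Gbx2 and Foxa1 without the arrays named. Calls also moved in the other comparisons.

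**Figure D4:**
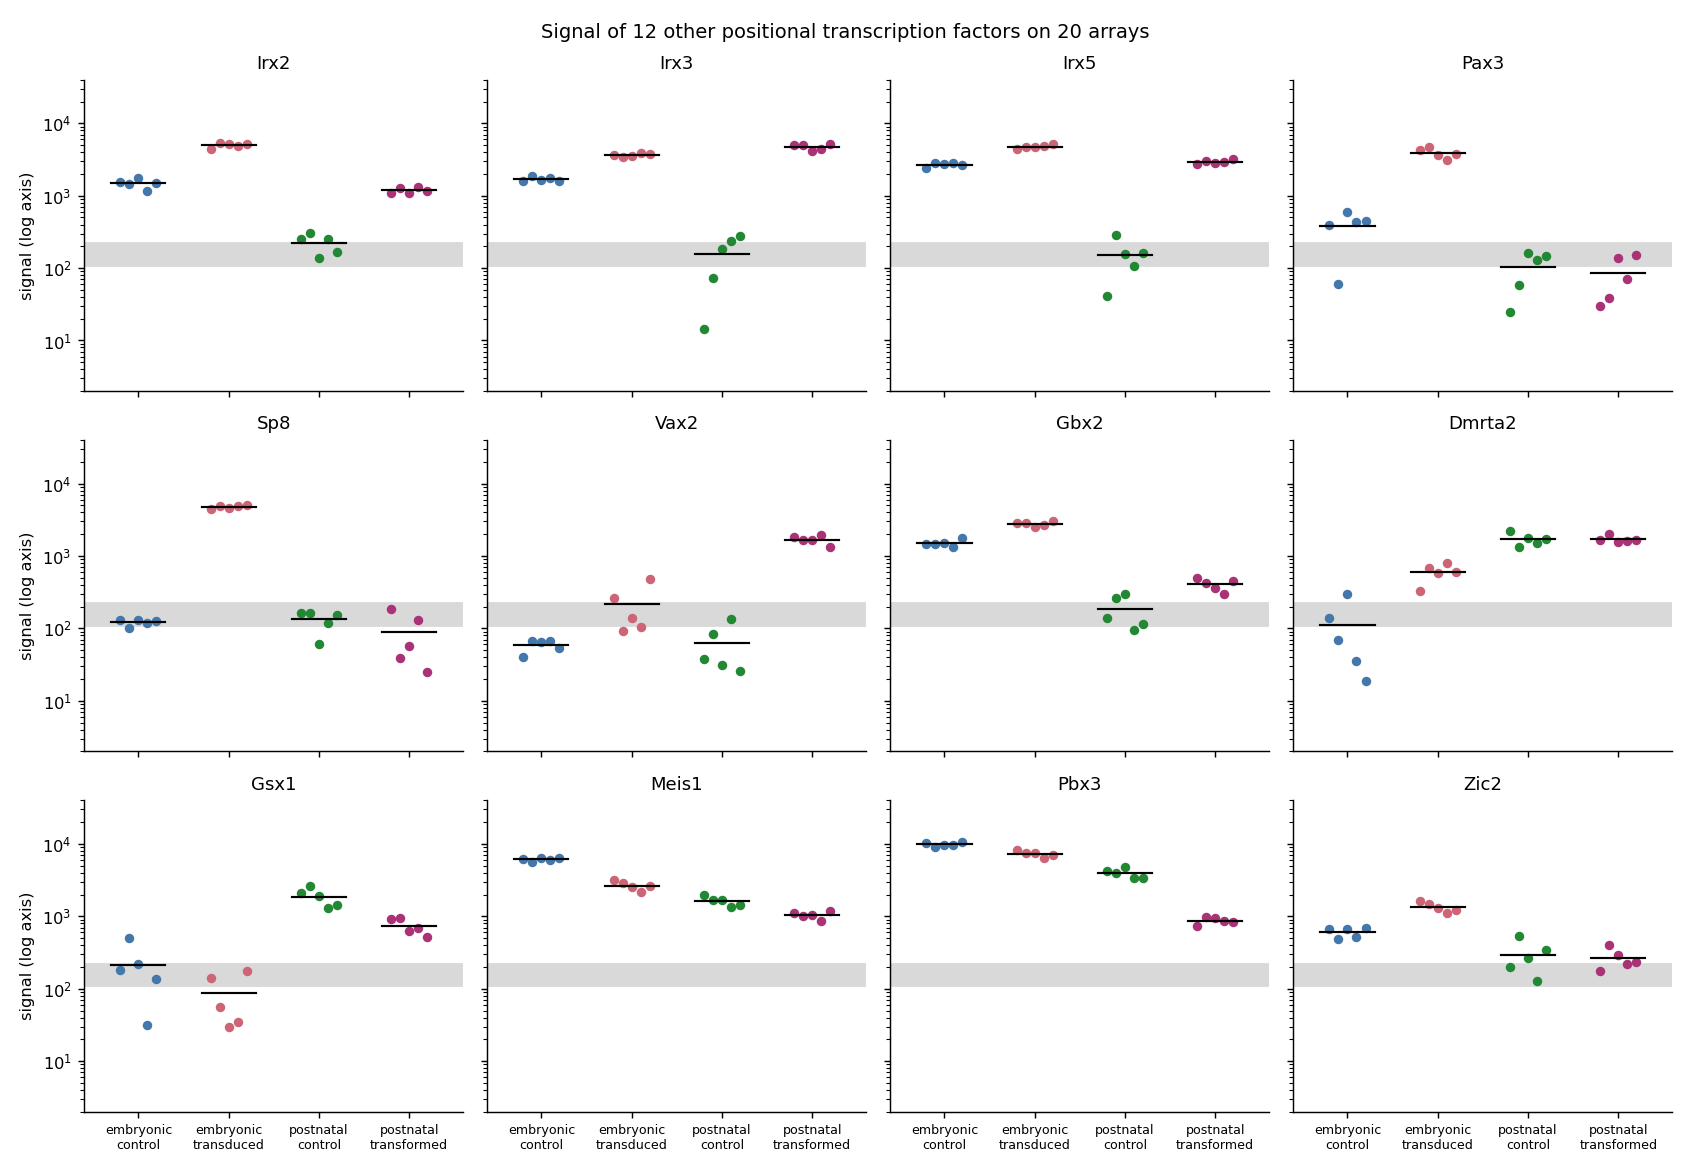
Signal (vertical log axis, arbitrary units) of 12 other positional transcription factors in the 4 groups of 5 arrays, with points for arrays, bars for group means and a grey band for the range of background. Irx3 and Irx5 are near background only in the postnatal controls, and Sp8 is above background on all 5 arrays only in the embryonic transduced group.

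Between the control groups 6 of the 69 factors were called higher in the postnatal cells and 13 lower, and between the modified groups 7 higher and 14 lower. Higher in the postnatal controls were factors of the ventral and dorsal forebrain, with means of 1867 against 215 for Gsx1, 1723 against 113 for Dmrta2 and 691 against 127 for Dlx2, where 3, 1 and 1 of 5 embryonic control arrays were above background. Lower there were Meis1, by a log2 change of −1.92 ± 0.12, Pbx3, by −1.34 ± 0.10, and Nr2f2, by −1.67 ± 0.14. The Iroquois genes Irx5, Irx3 and Irx2 had means of 151, 157 and 222 in the postnatal controls. Their means in the embryonic controls were 2697, 1694 and 1482. Gbx2, a hindbrain factor, had means of 183 in the postnatal and 1513 in the embryonic controls, and changed by −2.76 ± 0.24 between the modified groups. Pax3 was at least 26.5-fold lower in the postnatal transformed than in the embryonic transduced group, and Gsx1 at least 3.92-fold higher. In the difference of responses 5 of the 69 were called higher and 11 lower, among the latter Pbx3 at −1.72 ± 0.14 and Meis2 at −1.48 ± 0.22.

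Among relatives of the 8 genes, Zic2 rose by 1.15 ± 0.29 in the embryonic response (adjusted p = 0.00251, limma) while Zic1 fell. Zic5 changed by 0.63 ± 0.21 in the embryonic response, not called, and by −1.11 ± 0.21 in the postnatal response (adjusted p = 0.000181, limma). Zic2 and Zic5 lie on chromosome 14. There 354 genes with a mean signal over 500 across all arrays had a median log2 change of −0.86 in the postnatal response. The median was −0.03 for 10098 such genes of the other autosomes. The part of chromosome 14 in the Zic5 value was not tested. En1, the paralogue of En2, was at least 1.68-fold higher in the postnatal response and changed by 0.72 ± 0.43 in the embryonic response, not called. Otx2 was below background in all 4 groups, and Emx1 was called lower in the postnatal response by at least 1.24-fold from 3 of 5 control arrays, with overlapping groups. That call was lost under 75th percentile centring (adjusted p = 0.0509, limma) and without postnatal control arrays 4 and 5 (−0.81, adjusted p = 0.245, limma).

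Marker lists of other cell types also held called genes, and their members did not all go one way. A summed signal follows the brightest genes of its list and does not measure the number of cells. In the embryonic response 8 of 10 neuronal markers were called lower and 1 higher, and the summed signal went from 84741 to 90285 in the controls to 24640 to 26670 after transduction. In the postnatal response 3 were called higher, among them Gap43 from 18760 to 50374, and 3 lower, among them Dcx from 4716 to 1482, while the sum went from 73532 to 84256 up to 94907 to 100824. Of 7 oligodendrocyte progenitor markers 5 were called lower in the embryonic response, among them Pdgfra from 7629 to 596, and the sum went from 204440 to 228613 down to 97303 to 106363. In the postnatal response 1 of them was called lower and their sums were 266596 to 372385 and 251034 to 265345. Of 8 astrocyte markers 3 were called lower in the embryonic response, where the sums were 88888 to 103766 and 101781 to 119272. The higher sums after transduction came with Aldoc, from a mean of 52204.5 to 76312, and Gja1, from 19022 to 27214, neither called. In the postnatal response 2 astrocyte markers were called higher and 4 lower, among them Gja1 from 19673 to 844, with sums of 56659 to 159033 and 131604 to 136364. The control signals of Gja1 were uneven, at 55701, 33002, 1344, 4372 and 3948, and its transformed signals were 730 to 949.

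Of 8 meningeal fibroblast markers only Foxc1 was called in the embryonic response, from 142 with 2 of 5 arrays above background to 1979, and Foxc1 and Twist1 were called higher in the postnatal response. The sum was 1193 to 2025 and 2785 to 3383 in the embryonic groups and 428 to 1226 and 1516 to 1975 in the postnatal groups. Its rise follows Foxc1 in the embryonic groups, and Foxc1 and Twist1 in the postnatal groups. The collagen genes Col1a1 and Col1a2 had means of 284 and 641 in the embryonic controls and 168 and 383 after transduction, and neither was called. Of 8 microglial markers Aif1, Itgam and C1qa were below background on all 20 arrays, Csf1r was above it on all 20, and P2ry12 went from 166 to 1364 in the postnatal response and was called higher. The microglial sum was 1167 to 1487 and 1255 to 2463 in the embryonic groups and 1044 to 1422 and 2196 to 2620 in the postnatal groups. Its rise in the postnatal groups follows P2ry12. Of 6 endothelial markers Pecam1 was below background on all 20 arrays, and Kdr, from 162 to 504, and Flt1, from 87.9 to 291, were called higher in the embryonic response. The endothelial sum was 528 to 926 and 968 to 1886 in the embryonic groups and 312 to 915 and 662 to 1066 in the postnatal groups. Of 4 cerebellar granule precursor markers Neurod1 was called lower in the embryonic response, from 1074 to 529, and Zic2 higher, and the sum was 1727 to 2098 and 1851 to 2552 in the embryonic and 712 to 1084 and 629 to 904 in the postnatal groups. Maturing oligodendrocyte markers, 6 in number, held 2 lower calls in the embryonic and 3 in the postnatal response. The 8 neural progenitor markers held 2 higher and 1 lower call, then 2 higher, Nes and Sox1, and 2 lower, Prom1 and Sox9. No cycling marker was called in the embryonic response, and 6 of 7 were called lower in the postnatal response. The postnatal control arrays were split here, as for Mki67. Top2a had signals of 40607 to 41660 on control arrays 1 to 3 and 6320 and 6269 on arrays 4 and 5. The transformed arrays gave 6783 to 8390. Among 5 pericyte markers Acta2 was called lower in the embryonic and Abcc9 higher in the postnatal response. The part of these lists in the values of the 8 genes was not tested.

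Zic4 was above background on all 5 arrays of no group and was left out of a search for genes with a similar pattern. For each of the other 7 factors, the genes whose log2 signals followed it most closely over the 20 arrays were sought. They were taken from 11251 genes with a mean signal over 500 in a group, after symbols that are clone names were passed over. The arrays fall into 4 groups, so these Pearson correlations mostly describe the order of group means and carry no p. For Zic1 they were Fam98b (r = 0.979), Gpsm2 (r = 0.978) and Adk (r = 0.975). For Pax6 they were Rfx4 (r = 0.992), Gmps (r = 0.990) and Rcbtb2 (r = 0.983). Lhx2 was followed by Macroh2a3 (r = 0.955), Nr2f1 (r = 0.947) and Afg3l1 (r = 0.941), and Emx2 by Pcdh8 (r = 0.953), Susd4 (r = 0.947) and Plpp6 (r = 0.921). For En2 the closest were Kat2b (r = 0.968), Adipor1 (r = 0.944) and Decr2 (r = 0.942). Otx1 had Lrp10 (r = 0.887), Flcn (r = 0.859) and Dgkh (r = 0.856), and the representing probe set of Six3 had Aopep (r = 0.890), Zbtb11os1 (r = 0.888) and Serpinb9 (r = 0.884).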

How the data were processed

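The deposited values were linear intensities, 1 signal per probe set and array for 45101 probe sets. How the authors corrected background and normalized them is not given in the sources used here. Array means, trimmed by 2% at each end, were 2500.01 to 2500.02, so arrays were used as scaled. After removal of 64 control probe sets, GEO's platform annotation, whose symbols can be old, gave 1 symbol to 34945 probe sets, several to 932 and none to 9160. The single-symbol probe set of highest mean log2 signal stood for each gene. The 4 group means were fitted to log2(signal + 16) with limma 3.58.1 (lmFit, eBayes with trend), two-sided, using R 4.3.3 and, for reading, data.table (version 1.17.8), and the procedure was tested on simulated data. The number of arrays, 5 per group, limits the precision, as does signal near background. No arrays held identical values. The 8 genes and all gene lists were chosen with earlier results of these data known. The genes named were all 8 with their other probe sets, up to 6 called positional factors per direction with the smallest p, the Zic, Otx, Emx and En relatives, and the 3 most similar genes of each of the 8 but Zic4, which was too dim. The labels do not say whether replicate numbers pair samples, and the fit did not pair them. Alternatives to the offset, scaling, probe set choice, filter, weights, threshold and arrays used were computed.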

Additional observations from a re-analysis of the deposited data

Results flagged for a closer look

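Emx2 on array 1 of the postnatal transformed group stood apart from the other 4 arrays of its group, with a signal of 851 against 1251 to 1413 and a gap of 0.759 of the group's range. It was the only such array among 32 groups of 5 examined for the 8 genes, and chance gives about 1 in 20. The postnatal response was called different from the embryonic response for 4 genes. The fitted differences were −6.31 for Otx1, −2.87 for Emx2, −1.25 for Pax6 and −1.43 for Zic1. That of Zic1 rests on signals below background, so no difference in size was measured, and those of Otx1 and Emx2 include groups near or below it. That of Pax6 was −0.76 and not called with the mean of its probe sets.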

How the results depend on the processing

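The number of the 8 genes called was 4 in each of the 5 comparisons. Without a fold threshold it was 7 in the postnatal response and 7 in the modified age comparison, and with the mean of all probe sets it was 2 in the difference of responses, where Pax6 and Zic1 lost their calls. Leaving out each array in turn gave 4 to 5 in the control age comparison and 4 to 4 in the others. Without a fold threshold the genes called among all 18193 numbered 7162, 7692, 7083, 5830 and 9479 in the embryonic response, postnatal response, difference, control age and modified age comparisons, against 2611, 2904, 3475, 1925 and 4634. A replicate block gave 4, 4, 4, 5 and 4 calls among the 8. The added call was that of Zic4 in the control age comparison (adjusted p = 0.0250, limma). The labels do not say whether the numbers pair samples. Same-numbered deviations had r from −0.116 to 0.115, which cannot exclude a pairing. Values that changed sign were all uncalled. They were Pax6 in the embryonic response (−0.034 under 75th percentile centring, −0.12 with the mean of probe sets), Six3 with the mean of probe sets (−0.63 in the difference, −0.24 in the modified age comparison), En2 in the difference (−0.038 with offset 1, and −0.044 to 0.67 over the arrays left out, below 0 without embryonic control array 2 or 3), Lhx2 in the control age comparison (0.00496 without postnatal control arrays 4 and 5) and Zic4 in the postnatal response (−0.57 to 0.14 over the arrays left out). The cause was not tested. Over all settings, 1275 values of single genes kept direction and call, 17 gained a call and 7 lost one. Quantile normalization and 75th percentile centring shifted the median of all genes by up to 0.11 in the difference, and quantile normalization by 0.14 in the modified age comparison. Fitting only the groups compared was not possible for the difference, which uses all 4. Fitting every probe set on its own was chosen after seeing the data. Signal over background limits Zic4, and En2, Otx1 and Emx2 in the groups where they are dim.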
